A study of Mus musculus with 6 samples.

Results

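Actins, profilins and the WAVE and N-WASP proteins build the branched actin networks that shape dendritic spines and growth cones. The 10 genes described here are Actb and Actg1, which encode the cytoplasmic actins, Pfn1 and Pfn2, which encode the profilins, Wasf1, Wasf2 and Wasf3, which encode the WAVE proteins, Wasl, which encodes N-WASP, and Arpc2 and Arpc3, which encode subunits of the Arp2/3 complex. They were taken by gene symbol from a list chosen with earlier results of these data known. Counts among them, set beside the share of all genes, are therefore descriptive only. All 10 are among the 31245 genes of the deposited table and among the 16653 genes that were abundant enough to be tested.

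The table holds 6 libraries of poly(A) RNA from mouse primary cortical neuronal cultures that were started at postnatal day 1 and kept for 12 to 13 days in vitro. The NGPF2 group (3 libraries) received 1.5 ng/ml of NGPF2 over 2 h, and the vehicle group (3 libraries) received PBS. No genetic change is named for either group, while strain and number of pups per culture are not given in the labels. The series describes 3 pairs of vehicle and treated cultures from 3 independent experiments. Libraries of the same replicate number form a pair. P-values measure the spread between these libraries.

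Actin monomers (G-actin) assemble into filaments (F-actin), and profilin delivers monomers to growing filament ends. WAVE proteins act downstream of Rac and N-WASP downstream of Cdc42, and both switch on the Arp2/3 complex, which starts a new filament as a branch on the side of an old one. In neurons this machinery drives spine enlargement and axon and dendrite growth. Free actin monomers also hold back the cofactors of the transcription factor Srf, and actin genes are themselves Srf targets.

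Replicate 1 of both groups stood apart from replicates 2 and 3. The titles of replicates 2 and 3 share a library-name stem that those of replicate 1 lack, so the libraries are described as 2 sets. The table columns taken as replicate 1 are headed with the digit 3, and their assignment rests on elimination. Total counts ran from 17478070 to 45193691 per library, and counting error was widest for Wasf2. In replicates 2 and 3, 21.1% of all genes tested passed an adjusted p of 0.05 between the groups, and over the 3 pairs 0% passed (limma). All 5 neuron markers (Rbfox3, Tubb3, Map2, Snap25 and Syt1) were present, with a summed level of 126246 to 168127 normalized counts over the 6 libraries. Markers of several other cell types moved with the groups in replicates 2 and 3. Lower with NGPF2 were 9 of 9 astrocyte markers, 7 of 8 microglia markers, 3 of 5 markers of oligodendrocyte precursors and 3 of 7 mural and fibroblast markers. None of these 4 lists had a marker that rose. Of the oligodendrocyte markers 1 of 4 fell, and of 2 tested endothelial markers 0 passed. Values below are normalized counts (the count divided by the size factor of its library), and log2 differences are NGPF2 minus vehicle of the normalized count plus 1.

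The sequences of the actin genes bear on how their reads can be told apart, and are shown first. Actb (ENSMUSG00000029580) lies on chromosome 5 at 142903115 to 142906754 and Actg1 (ENSMUSG00000062825) on chromosome 11 at 120345690 to 120348542 (mm10, minus strand for both). Exons of the small RNA genes Gm23419 and Mir6935 overlap those of Actg1 on the same strand. Their coding sequences, each of 1125 bases without the stop codon, were identical at 88.6% of positions. Of the 128 differences 120 fell on the third base of a codon, 8 on the first and 0 on the second. The first 90 coding bases lie in exon 2 of both genes, at chr5:142905597-142905686 and chr11:120348002-120348091, and are printed 5′ to 3′ with the 16 bases that differ in capitals.
Actb coding start: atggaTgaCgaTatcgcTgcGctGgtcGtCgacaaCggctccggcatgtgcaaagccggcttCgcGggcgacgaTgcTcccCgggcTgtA
Actg1 coding start: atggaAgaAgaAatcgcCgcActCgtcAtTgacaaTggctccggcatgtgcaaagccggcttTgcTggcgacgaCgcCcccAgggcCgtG
The longest stretch of the coding sequences without a difference was 62 bases. No window of 100 bases of the longest coding transcript of Actb was found in a transcript of Actg1. Copies elsewhere in the genome matter more for Actg1: 51.1% of its windows of 100 bases also occurred in transcripts of other genes, chiefly the processed pseudogene Gm12715 (chromosome 4, 103563402 to 103564529), against 1.10% for Actb and 0% for each of the other 8 genes. The sources used here do not say how the authors' counting shared reads between Actg1 and these copies, and Actg1 counts are uncertain to that extent.

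RefSeq promoter windows around the annotated start (GRCm38.p6) were found for 9 of the 10 genes, all except Actb. The window of Actg1 held a CArG box, the element that Srf binds, and those of the other 8 did not. A CArG box was found on either strand in 1.63% of 32851 such windows of the same length. The sequence upstream of the annotated Actg1 gene, chr11:120348543-120348745 (minus strand), is printed 5′ to 3′ with this element in capitals, at positions -90 to -81 from the RefSeq start.
Actg1 promoter: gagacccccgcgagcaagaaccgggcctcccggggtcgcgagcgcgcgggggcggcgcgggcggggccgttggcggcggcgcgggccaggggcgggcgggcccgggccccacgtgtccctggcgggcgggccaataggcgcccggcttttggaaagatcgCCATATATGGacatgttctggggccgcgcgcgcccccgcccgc
The letters GGGCGG were present in 8 of the 9 windows and in 35.7% of all windows, CCAAT in 4 of the 9 and in 37.4%, and TATAAA in 0 of the 9 and in 13.6% (both strands). A match describes the letters of the window and is no evidence of binding.

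Per length, the 10 genes spanned a wide range of abundance. The level was computed from the recovered counts as RPKM, with the summed exon length of the gene and the total count of the library. It averaged 539 for Actg1 (range 401 to 624 over the 6 libraries), 403 for Actb (303 to 512), 174 for Pfn2 (144 to 199), 116 for Arpc2 (93.9 to 131) and 102 for Wasf1 (64.9 to 144). The lower levels were 62.7 for Arpc3 (49.8 to 78.2), 46.6 for Pfn1 (44.9 to 48.1), 31.8 for Wasf3 (24.4 to 37.5), 15.1 for Wasl (12.2 to 19.3) and 1.42 for Wasf2 (0.640 to 2.10). Actg1 and Actb ranked 39 and 53 among the 16653 genes tested, and Wasf2 ranked 11287. Each gene lay above the next in this order in all 6 libraries, except that Arpc2 lay above Wasf1 in 4 of 6, so that these 2 did not separate beyond their spread. The order of the middle genes depends on the length used. With the longest coding transcript in place of all exons, Pfn1 averaged 130 and Arpc3 193, because the annotated exons of Pfn1 sum to 2405 bases and its transcript to 861, and those of Arpc3 to 2762 and 899.

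**Figure D1:**
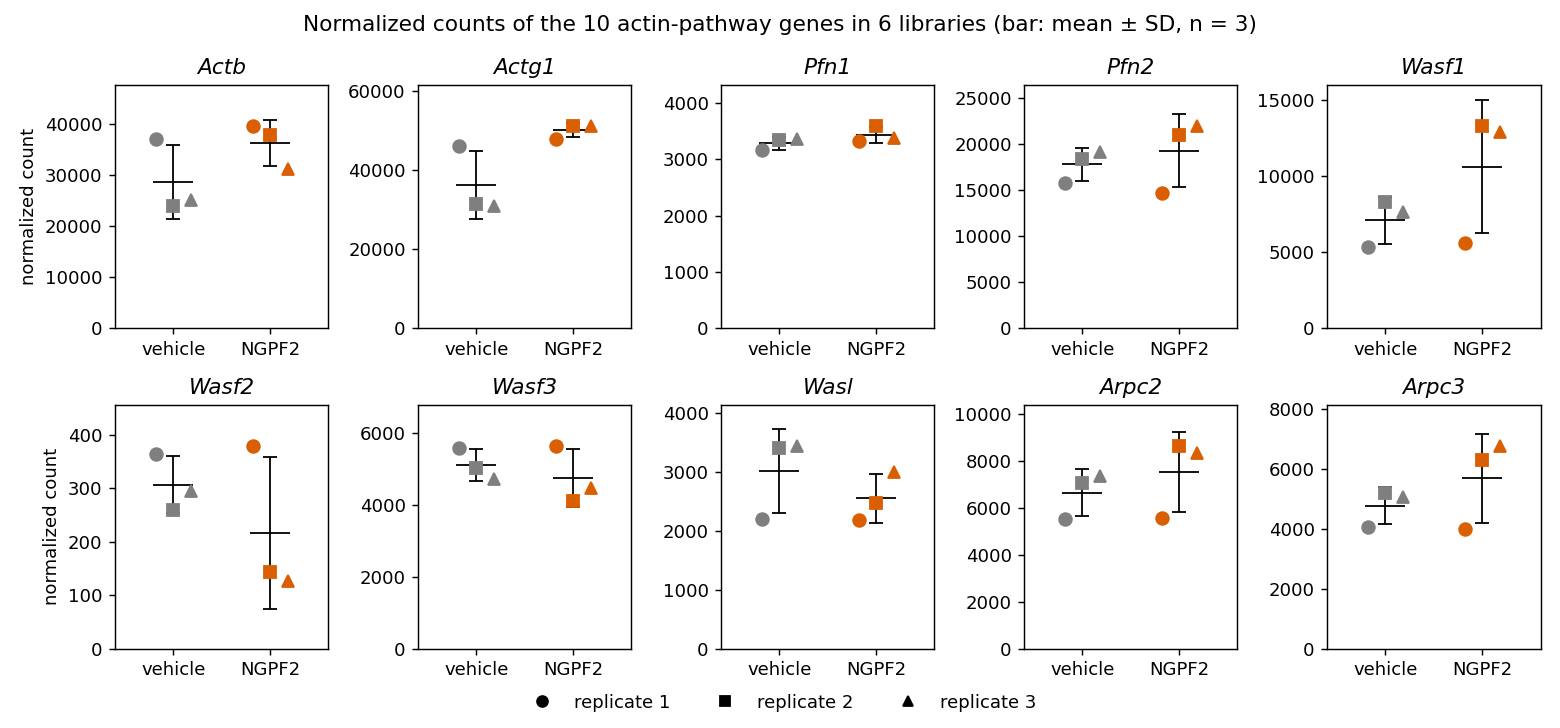
Normalized counts of the 10 genes in each library, by group (x axis), with the mean and SD of 3 libraries as bars and the replicate number as the symbol. The y axis of each panel starts at 0, and Actg1 is the gene whose vehicle and NGPF2 libraries do not overlap.

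The comparison of NGPF2 with vehicle asked whether transcripts of the actin machinery differed after 2 h. Both actin genes were higher with NGPF2 in replicates 2 and 3 and close to equal in replicate 1. Actg1 stood at 46058, 31489 and 30879 normalized counts in vehicle 1, 2 and 3 and at 47969, 51279 and 51138 in NGPF2 1, 2 and 3. Each NGPF2 library was above each vehicle library, which held for 4.11% of all genes tested in this direction (5.89% in the lower direction), and vehicle 1 lay close to the NGPF2 libraries. The log2 difference was 0.06, 0.70 and 0.73 in pairs 1, 2 and 3. In replicates 2 and 3 Actg1 rose by 0.72 (SE 0.06, adjusted p = 0.00351, limma). That call was lost without a filter on low counts (adjusted p = 0.0748, limma). Over the 3 pairs the difference was 0.50 (SE 0.16, adjusted p = 0.379, limma).

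The pseudogene copies of Actg1 moved with it. Gm12715 held 10292, 6505 and 6689 normalized counts with vehicle and 10684, 10823 and 9365 with NGPF2 in replicates 1, 2 and 3. The 5 copies with the most shared windows held 16.2% to 19.3% of the summed level of Actg1 and these copies over the 6 libraries. The log2 difference of that sum was 0.06, 0.71 and 0.68 in the 3 pairs, near the values of Actg1 alone. Actg1 makes up most of the sum, so this likeness was largely set in advance. It cannot show how reads were shared between Actg1 and the copies.

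Actb, often used as a reference gene in expression assays, stood at 36920, 23884 and 24997 with vehicle and 39635, 37799 and 31115 with NGPF2. Vehicle 1 lay above NGPF2 3, so the groups overlapped, and within replicates 2 and 3 they did not. The log2 difference was 0.10, 0.66 and 0.32 in pairs 1 to 3. Actb rose by 0.49 in replicates 2 and 3 (SE 0.11, adjusted p = 0.0353, limma), a call that was lost with quantile normalization (0.26, adjusted p = 0.0823). The call was also lost without a filter on low counts (adjusted p = 0.237, limma) and without the mean-variance trend (adjusted p = 0.119, limma). Over the 3 pairs Actb did not pass (0.36, SE 0.14, adjusted p = 0.379). The means were 28600 ± 7227 with vehicle and 36183 ± 4484 with NGPF2 (SD, n = 3 each). The 2 actin genes together held 0.188% to 0.303% of all counts of a library.

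The share of Actb in the summed level of both actins per kilobase was 44.3%, 42.9% and 44.5% in vehicle 1 to 3 and 45.05%, 42.2% and 37.6% in NGPF2 1 to 3. NGPF2 3 was the library with the lowest share, and the other 5 lay within a few percentage points of each other. The mean was 43.9% ± 0.863 with vehicle and 41.6% ± 3.74 with NGPF2, and an exact permutation test of the 3 against 3 libraries gave p = 0.5 (2-sided, smallest possible 0.1). The difference of -2.28 percentage points became 0.0256 without replicate 3.

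The profilins changed less. Pfn1, the profilin of most tissues (ENSMUSG00000018293, chromosome 11, 70651850 to 70654644), held 3157, 3339 and 3353 normalized counts with vehicle and 3329, 3600 and 3385 with NGPF2. It was the steadiest of the 10 genes, and its 6 values lay within a narrow band. The log2 difference in replicates 2 and 3 was 0.06 (SE 0.07, adjusted p = 0.565, limma), and its sign turned with quantile normalization (-0.04) and with scaling to library totals (-0.07). Pfn2, the profilin that predominates in brain (ENSMUSG00000027805, chromosome 3, 57841895 to 57848079), held 15805, 18459 and 19208 with vehicle and 14745, 21074 and 22061 with NGPF2. Its values were lower with NGPF2 in replicate 1 and higher in replicates 2 and 3, where the log2 difference was 0.20 and did not pass (SE 0.06, adjusted p = 0.0923, limma; -0.02 with quantile normalization). Pfn2 made up 75.05% to 81.6% of both profilins per kilobase, and this share averaged 78.6% ± 1.18 with vehicle and 78.8% ± 3.39 with NGPF2 (SD, n = 3; exact permutation p = 0.9, 2-sided). With the longest coding transcript as length the range was 61.9% to 70.6%.

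The 3 WAVE genes went different ways in replicates 2 and 3. Wasf1, the neuronal WAVE1 (ENSMUSG00000019831, chromosome 10, 40883475 to 40938570), stood at 5348, 8260 and 7654 with vehicle and 5567, 13304 and 12910 with NGPF2. NGPF2 2 and 3 were far above the other 4 libraries, and both libraries of replicate 1 were the lowest. The log2 difference was 0.06, 0.69 and 0.75 in pairs 1 to 3. Wasf1 rose by 0.72 in replicates 2 and 3 (SE 0.07, adjusted p = 0.00456, limma). That call was lost without a filter on low counts (adjusted p = 0.0524, limma). Wasf1 did not pass over the 3 pairs (0.50, SE 0.16, adjusted p = 0.379, limma).

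Wasf2 is the WAVE2 gene (ENSMUSG00000028868, chromosome 4, 133130505 to 133199756). It was the 1 gene of the 10 that passed the test on the lower side in replicates 2 and 3. Wasf3 and Wasl were also lower there in both pairs without passing. Wasf2 stood at 365, 260 and 295 with vehicle and 380, 143 and 126 with NGPF2. NGPF2 2 and 3 were the lowest of the 6 libraries. These values rest on few counts, from 70 in NGPF2 3 (95% Poisson interval 97.9 to 159 on the normalized scale, counting error only) to 594 in NGPF2 1 (350 to 412), and the intervals of NGPF2 2 and 3 (119 to 172 for NGPF2 2) lie below those of vehicle 2 and 3 (231 to 292 and 259 to 334). Wasf2 fell by 1.04 on the log2 scale in replicates 2 and 3 (SE 0.16, adjusted p = 0.0147, limma), with 0.06, -0.85 and -1.22 in pairs 1 to 3. That call was lost without a filter on low counts (adjusted p = 0.0744, limma). Wasf2 did not pass over the 3 pairs (-0.67, SE 0.28, adjusted p = 0.379, limma).

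Wasf3, the WAVE3 gene, also expressed in brain (ENSMUSG00000029636, chromosome 5, 146384985 to 146473615), held 5586, 5010 and 4717 with vehicle and 5637, 4102 and 4453 with NGPF2. Its values with NGPF2 were below those with vehicle in replicates 2 and 3 only. The log2 difference there was -0.19 (SE 0.08, adjusted p = 0.149, limma), and it passed only with scaling to library totals (-0.31, adjusted p = 0.0495), which lowers the median of all genes by 0.13.

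In each library Wasf1 was the largest part of the WAVE transcripts per kilobase. Its share was 62.3%, 74.2% and 73.7% in vehicle 1 to 3 and 63.0%, 85.2% and 83.8% in NGPF2 1 to 3, and that of Wasf3 was 35.7%, 24.7% and 24.96% and then 35.0%, 14.4% and 15.9%. The composition was thus alike in both libraries of replicate 1, and Wasf1 took the largest share in NGPF2 2 and 3. Wasf2 made up 1.94%, 1.06% and 1.29% with vehicle and 1.96%, 0.419% and 0.372% with NGPF2. Its mean share was 1.43% ± 0.453 and 0.917% ± 0.904 (SD, n = 3), with an exact permutation p of 0.5 (2-sided).

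**Figure D2:**
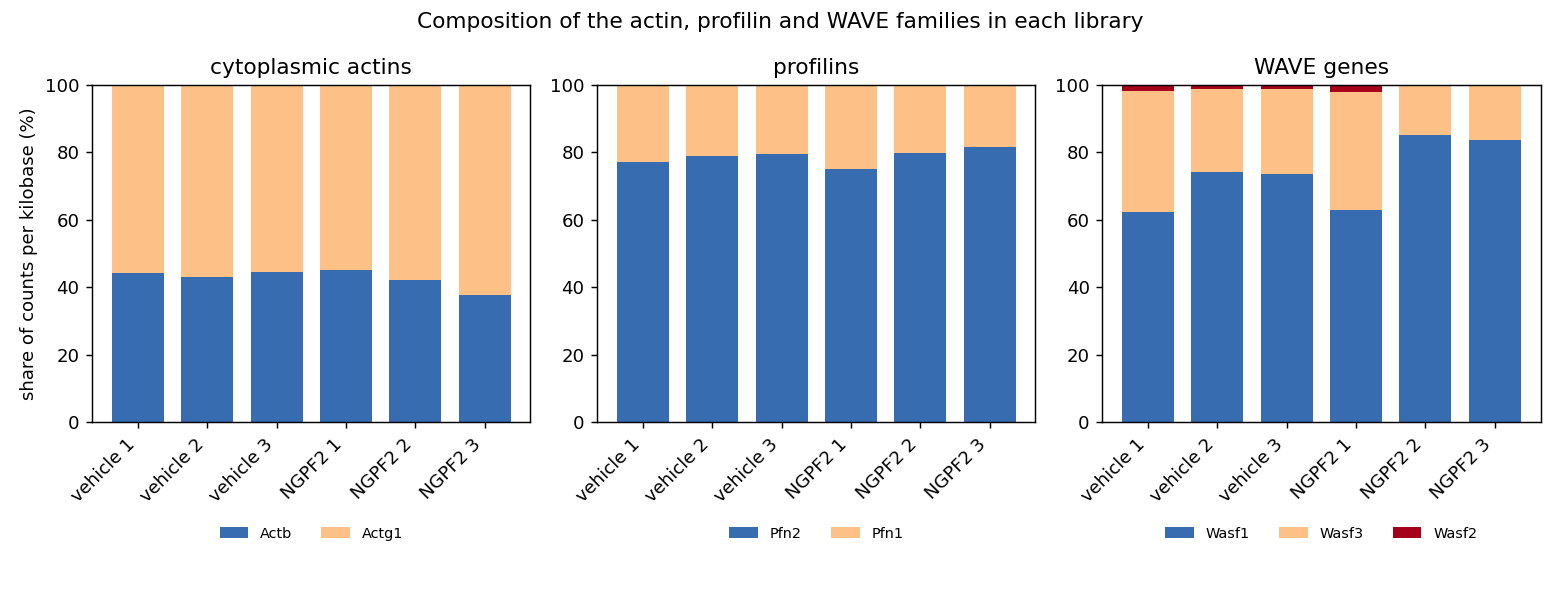
Share of each gene in the summed level per kilobase of its family (y axis, percent) in each of the 6 libraries (x axis), for the actins, the profilins and the WAVE genes. Both libraries of replicate 1 are alike for the actins and the WAVE genes. The Pfn2 share is 77.3% in vehicle 1 and 75.05% in NGPF2 1. The Wasf1 share runs from 62.3% in vehicle 1 to 85.2% in NGPF2 2.

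Wasl, which encodes the Cdc42 effector N-WASP (ENSMUSG00000029684, chromosome 6, 24613805 to 24665009), stood at 2196, 3400 and 3442 with vehicle and 2177, 2475 and 2992 with NGPF2. Vehicle 2 and 3 were the highest libraries and replicate 1 the lowest in both groups. The log2 difference was -0.01, -0.46 and -0.20 in pairs 1 to 3. It was -0.33 in replicates 2 and 3 (SE 0.11, adjusted p = 0.0879, limma), and passed with quantile normalization (-0.41, adjusted p = 0.0496), with library totals (-0.46, adjusted p = 0.0491) and without NGPF2 3 (-0.47, adjusted p = 0.0245).

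Arpc3, a small subunit of the Arp2/3 complex (ENSMUSG00000029465, chromosome 5, 122391878 to 122414184), stood at 4074, 5190 and 5058 with vehicle and 3978, 6291 and 6779 with NGPF2. It rose by 0.35 in replicates 2 and 3 (SE 0.07, adjusted p = 0.0270, limma), which did not pass with quantile normalization (0.21, adjusted p = 0.116) or library totals (0.22, adjusted p = 0.0941). Nor did Arpc3 pass without a filter on low counts (adjusted p = 0.105, limma) or without the mean-variance trend (adjusted p = 0.111, limma). Arpc2, a core subunit that binds the mother filament (ENSMUSG00000006304, chromosome 1, 74236084 to 74268209), held 5514, 7075 and 7382 with vehicle and 5563, 8659 and 8363 with NGPF2. Its difference of 0.24 lay just short of the threshold (SE 0.06, adjusted p = 0.0574, limma) and passed with voom on recovered counts (adjusted p = 0.0497) and with a minimum mean of 50 (adjusted p = 0.0481). Both subunits were near equal in pair 1, at -0.03 for Arpc3 and 0.01 for Arpc2.

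**Figure D3:**
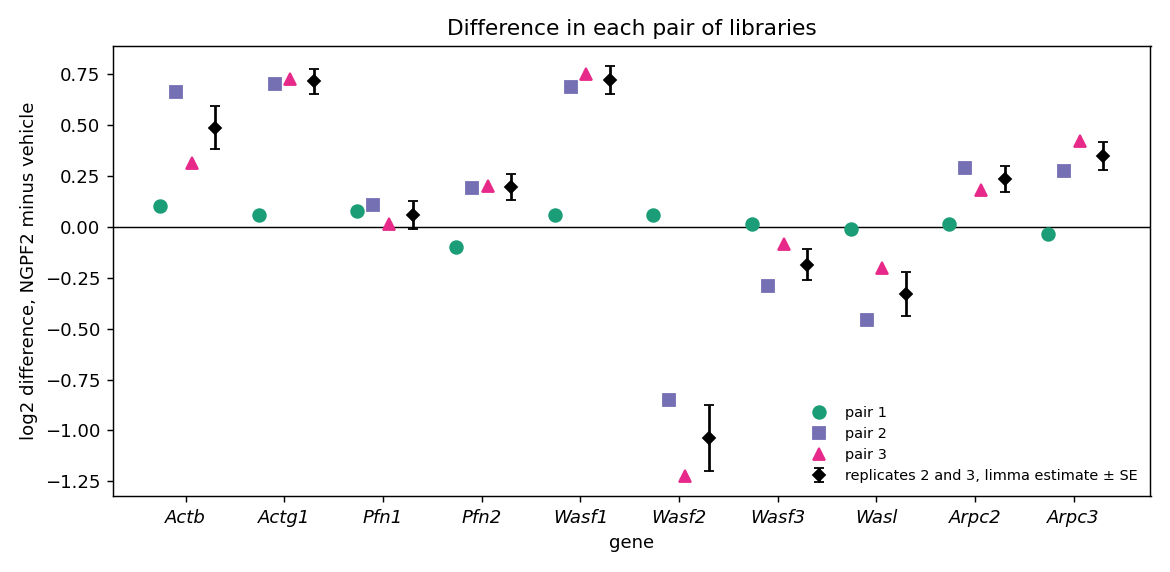
Log2 difference of NGPF2 minus vehicle (y axis) of the 10 genes (x axis) in each pair of libraries, with the limma estimate and SE for replicates 2 and 3 as diamonds. Pair 1 lies between -0.10 and 0.10 for all 10 genes, and pairs 2 and 3 reach 0.75 for Wasf1 and -1.22 for Wasf2.

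Across the 10 genes, 5 passed in replicates 2 and 3 (4 higher, 1 lower), where 9.77% of all genes tested were called higher and 11.3% lower. In replicates 2 and 3 the groups did not overlap for 7 genes in the higher direction and 3 in the lower, as for 32.3% and 32.7% of all genes. The median log2 difference was 0.22 over the 10 genes, -0.0027 over all genes tested and 0.10 over the 5813 genes with a mean of at least 1000 normalized counts. Over the 3 pairs 0 of the 10 passed with limma, and voom also called 0. An unadjusted p under 0.05 was found for 3 of them (Actb, Actg1 and Wasf1) and for 2166 of all 16653 genes tested (limma). The calls in replicates 2 and 3 did not hold with vehicle 2 or vehicle 3 left out, a fit that leaves 1 vehicle library. The log2 differences without vehicle 2 and without vehicle 3 were 0.73 and 0.70 for Actg1 and 0.46 and 0.52 for Actb.

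Whether the difference itself changed between the sets was tested with an interaction term, in which the lone replicate 1 library of each group is taken to vary like the others. The difference in replicates 2 and 3 minus that in replicate 1 was 0.66 for Actg1 (SE 0.10, adjusted p = 0.0511), 0.66 for Wasf1 (SE 0.12, adjusted p = 0.0644) and -1.10 for Wasf2 (SE 0.26, adjusted p = 0.109; limma for each). None of the 10 genes passed with limma, against 2.49% of all genes (0.721% higher, 1.77% lower). An unadjusted p under 0.05 was found for 5 of the 10 genes and for 3386 of all 16653 genes tested (limma). With voom 3 passed, Actg1 (adjusted p = 0.0130), Wasf1 (adjusted p = 0.0261) and Wasf2 (adjusted p = 0.0474), where voom called 1368 of all 16653 genes tested.

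The level without treatment also differed between the sets. Among vehicle libraries, replicates 2 and 3 were above replicate 1 by 0.57 for Wasf1 (SE 0.08, adjusted p = 0.0136), 0.64 for Wasl (SE 0.13, adjusted p = 0.0307) and 0.39 for Arpc2 (SE 0.08, adjusted p = 0.0282), all on the log2 scale with limma. They were below replicate 1 for Actb (-0.60, SE 0.13, adjusted p = 0.0365) and Actg1 (-0.56, SE 0.07, adjusted p = 0.00974). These 5 of the 10 genes passed (3 higher, 2 lower), where 19.9% of all genes tested were called, 10.5% higher and 9.42% lower. Arpc3 (0.33, adjusted p = 0.0550), Pfn2 (0.25, adjusted p = 0.0848), Pfn1 (0.08, adjusted p = 0.535), Wasf2 (-0.40, adjusted p = 0.203) and Wasf3 (-0.20, adjusted p = 0.200) did not pass. Vehicle 1 is a single library, and without vehicle 2 or vehicle 3 none of the 10 genes passed. This comparison uses vehicle 2 and 3, which also enter the treatment difference, so the 2 sets of values are given side by side only.

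Cell type markers also differed between the library sets and, in replicates 2 and 3, between the groups. The summed astrocyte markers stood at 60519 and 54187 normalized counts in vehicle 2 and 3, at 17132 and 14116 in NGPF2 2 and 3, and at 21638 and 25165 in vehicle 1 and NGPF2 1. Slc1a2 alone held 21469 and 18606, 12812 and 10237, and 2697 and 6056 of these counts in the same order. It fell by 0.80 on the log2 scale in replicates 2 and 3, where the median of the tested astrocyte markers was -3.08. The summed microglia markers stood at 620 and 519 in vehicle 2 and 3, 60.97 and 104 in NGPF2 2 and 3, and 1395 and 1522 in replicate 1. The mural and fibroblast markers summed to 544 and 499, 155 and 153, and 2463 and 2228 in the same order. Wasf2 and both of these sums were lowest in NGPF2 2 and 3 and highest in replicate 1. Single markers did not all share this order: Trem2 stood at 72.3 and 56.1 in vehicle 2 and 3, 11.96 and 17.9 in NGPF2 2 and 3, and 7.09 and 8.32 in replicate 1. Cx3cr1 was likewise highest in vehicle 2 and 3 (81.3 and 59.6), and Col1a1 stood at 47.3 in vehicle 2 and 56.2 in NGPF2 2. Their part in the Wasf2 difference was not tested, and in such mixed cultures fewer cells of a type and less RNA per cell cannot be told apart.

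Neuron markers summed to 144851 and 142618 in vehicle 2 and 3, 168127 and 159533 in NGPF2 2 and 3, and 126246 and 127159 in replicate 1, and 2 of the 5 rose in replicates 2 and 3. Excitatory neuron markers summed to 81221 and 83488, 118977 and 109359, and 27654 and 27149 in that order, an order shared by Wasf1. Inhibitory neuron markers summed to 40208 and 43287, 58073 and 57153, and 84840 and 80238. Rbfox3 and Snap25 shared the order of the neuron sum, but not all single markers followed their sums. Tubb3 stood at 12359 and 13183 in vehicle 2 and 3, 22922 and 21508 in NGPF2 2 and 3, and 30308 and 30835 in replicate 1. Map2 differed by -0.07 on the log2 scale in replicates 2 and 3. The excitatory marker Neurod6 was lowest in NGPF2 2 and 3 (1175 and 1172). The part of these shifts in the differences of Wasf1, Actb, Actg1 and Arpc3 was not tested. Listed at 0 in at least 1 library were the astrocyte marker Gjb6, the microglia markers Aif1, Cx3cr1 and Tmem119, the fibroblast marker Lum and the endothelial markers Cdh5 and Cldn5.

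**Figure D4:**
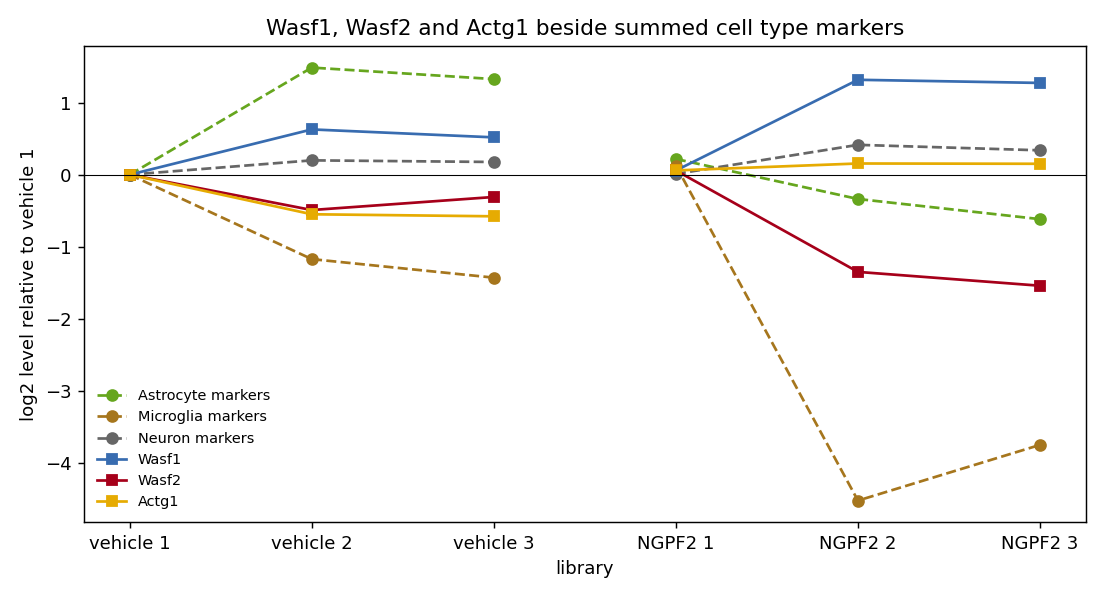
Log2 level relative to vehicle 1 (y axis) of Wasf1, Wasf2 and Actg1 (solid lines, squares) and of the summed astrocyte, microglia and neuron markers (dashed lines, circles) in each library (x axis). The lines join libraries of 1 group for reading only. Both libraries of replicate 1 lie near 0, and Wasf2 and the summed microglia markers are lowest in NGPF2 2 and 3.

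Other genes of the pathway were counted in replicates 2 and 3, with 21.1% of all genes as the background. Their lists were also chosen with earlier results of these data known, so the counts are descriptive only. Of the 8 other Arp2/3 subunits 2 rose and none fell (median 0.19). Actr3b, a brain-enriched form of the actin-related protein Arp3, rose from 5750 and 5791 to 8140 and 7949 normalized counts (0.48, SE 0.06, adjusted p = 0.00856, limma). Arpc5 rose from 5746 and 5286 to 7983 and 7829. Vehicle 1 and NGPF2 1 held 3084 and 3084 for Actr3b and 4221 and 5148 for Arpc5.

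Of 7 tested partners of WAVE in its regulatory complex 2 fell and none rose (median 0.04). Abi2, an adaptor that holds WAVE in the complex, fell from 3489 and 4659 to 2405 and 2164 (-0.82, SE 0.15, adjusted p = 0.0233, limma), but stood at 1987 in vehicle 1 and 4256 in NGPF2 1. Cyfip1, which binds Rac, fell from 2132 and 2054 to 1607 and 1335, with 1710 and 1682 in replicate 1.

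Of 11 tested upstream GTPases and N-WASP partners 5 rose and 1 fell (median 0.17). Trip10, an F-BAR protein that binds Cdc42, rose from 91.1 and 76.3 to 475 and 503, with 152 and 150 in replicate 1 (2.54, SE 0.16, adjusted p = 0.00207, limma). Wipf3, of the family of proteins that bind and stabilise N-WASP, rose from 8514 and 8336 to 14768 and 13663, and Baiap2, a Cdc42 and Rac effector of the postsynaptic density, from 6011 and 6048 to 9030 and 8696. Rac1, chosen here after its values were seen, held 9199, 9732 and 9347 with vehicle and 8864, 3465 and 10618 with NGPF2. NGPF2 2 was thus low on its own, and the log2 difference in replicates 2 and 3 was -0.65 with it (SE 0.51, adjusted p = 0.406, limma) and 0.15 without it (adjusted p = 0.166).

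Among 8 other Arp2/3 activators (the WASH complex, Whamm, Jmy and cortactin) 0 passed with limma, 0 had an unadjusted p under 0.05, and voom called 0. Of 8 tested inhibitors and branch removers 1 rose, the coronin Coro1a (2737 and 2548 to 3608 and 3275), and 1 fell, the glia maturation factor Gmfb, which removes branches (7219 and 6820 to 4767 and 5494). Of 16 formins and other nucleators 2 rose and 2 fell. Daam2 fell from 1070 and 1016 to 210 and 147, with 393 and 409 in replicate 1, and Fmnl2 from 1381 and 1468 to 640 and 605, with 1423 and 1497. Diaph2 rose from 394 and 375 to 522 and 578.

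Of 17 monomer-binding, capping and severing genes 3 rose and 3 fell (median -0.0015), among them Tmsb10, a thymosin that sequesters monomers (4301 and 4146 to 6104 and 6077), the twinfilin Twf2 (715 and 691 to 1188 and 1285) and, on the lower side, the capping protein gene Eps8 (1138 and 1218 to 728 and 598). Filament crosslinkers and binders had the most calls, 10 higher and 4 lower of 21 (median 0.33). Actn1, an alpha-actinin, rose from 3599 and 3610 to 6422 and 5939, while Msn and Ezr, which tie filaments to the membrane, fell from 1123 and 1213 to 350 and 391 and from 1688 and 1539 to 597 and 542. These calls moved together with the lower glial markers given above, whose part in them was not tested.

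Of the 3 genes of actin-sensing transcription 2 rose: Srf from 1099 and 1103 to 1685 and 1612 (0.58, SE 0.08, adjusted p = 0.00959, limma), and Mrtfb, a cofactor released by actin assembly, from 8947 and 8691 to 13798 and 12491. In replicate 1 Srf held 991 and 926 and Mrtfb 5451 and 5726. Of 4 tested genes among the other actins and profilins 1 rose, Actg2, from 3.57 and 0 to 29.9 and 30.5 normalized counts, where replicate 1 held 86.4 and 80.6. Acta2, smooth muscle actin, chosen here after its values were seen, held 1038 and 956 in replicate 1 and 17.9 to 28.6 in the other 4 libraries, and differed between vehicle 2 and 3 and vehicle 1 by -5.46 on the log2 scale (adjusted p = 0.00207, limma).

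**Figure D5:**
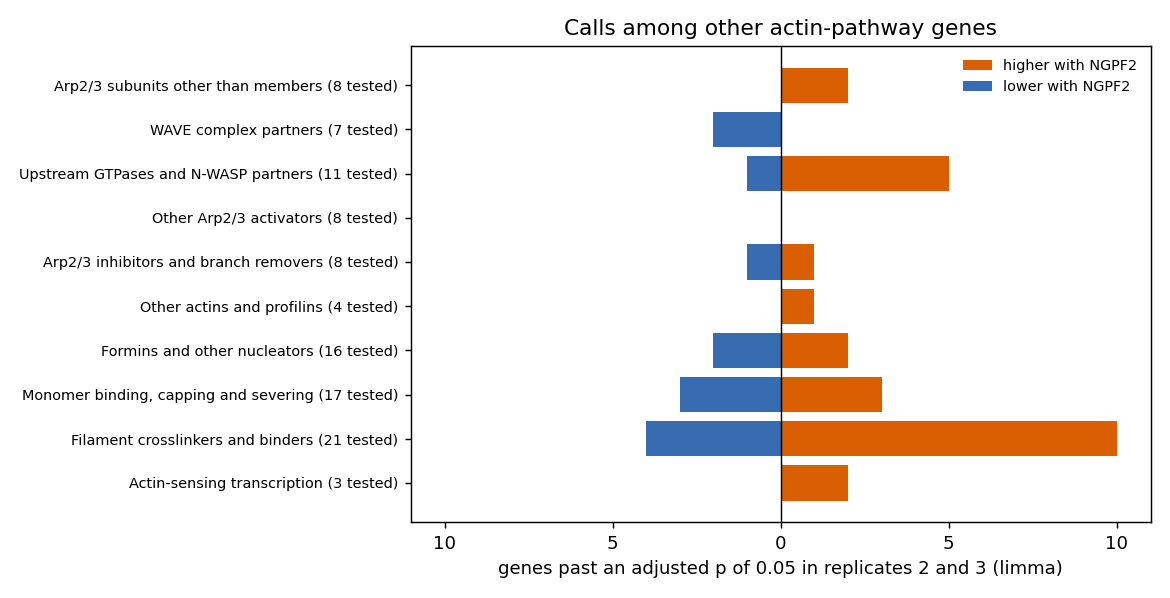
Number of genes past an adjusted p of 0.05 in replicates 2 and 3 (x axis, higher to the right and lower to the left of 0) for each list of actin-pathway genes (y axis, with the number tested). Filament crosslinkers and binders have 10 higher and 4 lower calls, and the other Arp2/3 activators have 0.

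The genes whose log2 levels followed a member most closely over the 6 libraries were taken from 5675 named genes with a mean of at least 1000 normalized counts. They describe 6 points that share depth and set. For Actb they were Plxna4 (Pearson r = 0.997), Slc29a4 and Scaf1, and for Actg1 they were Fh1 (r = 0.996), Magee1 and Zdhhc9. For Wasf1 they were Nceh1 (r = 0.999), Prkab2 and Cdk17, for Wasf2 Tcf20 (r = 0.997), Gnai2 and Hipk2, and for Wasf3 Mga (r = 0.996), Zhx1 and Pak3. For Wasl they were Mfap1b (r = 0.998), Tm9sf3 and Sec62. For Arpc2 they were Ptprk (r = 0.999), Lpcat4 and Itpr1, for Arpc3 Erc2 (r = 0.9995), Usp14 and Elovl6, for Pfn2 Cep19 (r = 0.998), Psmd6 and Ncald, and for Pfn1 Mfsd12 (r = 0.981), Herc2 and Cpne5. Such values are common with 6 libraries in 2 sets: 571 genes exceeded r = 0.95 with Wasf1, 694 with Arpc2, 129 with Actg1 and 24 with Pfn1. Gnai2 shows the pattern of Wasf2 at a higher level, at 4270, 3108 and 3162 normalized counts with vehicle and 4308, 1448 and 1312 with NGPF2.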

How the data were processed

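Per the submitters' processing notes, FastQC, STAR 2.5, Cuffnorm, DESeq 1.22.1 and mm10 were used, with no role given. The sources used here name no counting tool, annotation or strand setting. Although its name says FPKM, the deposited table holds log2 values of counts divided by a size factor, with 1 added. Undoing the log gave whole counts for 100% of entries per library (tolerance 0.01), with steps that match median-of-ratios size factors. Whole counts were recovered from this.

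The columns of replicates 2 and 3 carry the library names of the titles, and the last column per group went to replicate 1 because no other library was left. Those columns carry the group's initial and the digit 3, which does not match that number, so every value of replicate 1 and its pairing rest on this assignment. Symbols were found for 31185 of 31245 identifiers. Genes were kept from a mean of 10 normalized counts upwards and tested with limma 3.58.1 in R 4.3.3 (mean-variance trend, 2-sided, Benjamini-Hochberg over 16653 genes, threshold 0.05): over the 3 pairs with the replicate number as a block, in replicates 2 and 3 without a block, and with cell means of treatment by set for the interaction and for vehicle between the sets. Deviations from group means correlated at 0.594, 0.299 and 0.333 between the libraries numbered 1, 2 and 3 across genes, but also at 0.342 for vehicle 2 with NGPF2 3 and 0.320 for vehicle 3 with NGPF2 2. The values therefore separate the sets and not pairs 2 and 3, and the pairing comes from the series' statement of pairs and the replicate numbers. The fits were tested on simulated data.

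Lengths, coordinates and transcripts come from GENCODE M21 and promoters from RefSeq. Named list genes are at most 3 of smallest p per list among those that passed in replicates 2 and 3, and Acta2 and Rac1 were added. The members and lists were chosen with earlier results of these data known. Alternatives covered the pseudocount (5), filters (none, 50), scaling, voom, the trend, the block and left-out libraries. Counting intervals cover counting error only. Plots used matplotlib 3.10.9 (Python 3.11.15).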

Additional observations from a re-analysis of the deposited data

Results flagged for a closer look

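The difference between NGPF2 and vehicle differed between replicates 2 and 3 and replicate 1 for 7 of the 21 named list genes (limma interaction, adjusted p under 0.05, with 1 library per group in replicate 1). Of all genes tested 2.49% passed, and the named genes were chosen by their p in replicates 2 and 3, which enters the interaction, so the count is no independent evidence. The log2 interaction, positive where the difference was more positive in replicates 2 and 3, was -1.92 for Abi2, which was higher with NGPF2 in pair 1 by 1.10. It was 2.55 for Trip10 and 1.17 for Twf2. It was -1.27 for Fmnl2, -2.62 for Daam2, -1.63 for Msn and -1.48 for Ezr. Without vehicle 2 or without vehicle 3, none of the 7 passed.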

How the results depend on the processing

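Of 80 alternative values of the 10 genes in replicates 2 and 3 that leave out no library, 62 kept direction and side of the threshold. Over the 3 pairs, genes called were 0, 1 with pseudocount 5, 1 without the replicate block and 0 to 3275 with a pair left out, and members called 0 to 5, the upper value without replicate 1. In replicates 2 and 3, genes called were 3511 (1627 higher, 1884 lower; 982 higher and 2665 lower with library totals), 1074 without a filter, 1535 without the trend, 3275 with the replicate block and 0 to 3206 with 1 library left out; members called were 5, 0 without a filter, 3 without the trend, 5 with the replicate block and 0 to 6. For the interaction, genes called were 415, 4684 without a filter, 733 with a minimum of 50, 1368 with voom, 22 without the trend, 526 with the replicate block and 0 to 412 with 1 library left out; members were 0, 1 with pseudocount 5, 1 without a filter, 2 with a minimum of 50 and 3 with voom. Vehicle genes called between the sets were 3322, 4999 with voom, 1232 without the trend and 0 to 3898 with 1 library left out; members were 5, 3 without a filter, 0 without the trend and 0 to 6. The causes were not tested.

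The sign turned for Pfn1 over the 3 pairs (-0.00365 with quantile normalization, -0.0186 with library totals) and in replicates 2 and 3 (-0.0376 and -0.0657), for its interaction without NGPF2 3 (0.0286, -0.0601 without NGPF2 2), for Pfn2 with quantile normalization (-0.0408 over the 3 pairs, -0.0160 in replicates 2 and 3) and for Rac1 without NGPF2 2 (0.15, and -1.46 without NGPF2 3). With a replicate left out, the Actb share differed by -3.80 to 0.0256 percentage points and the Pfn2 share by -0.647 to 1.48 (-0.105 without replicate 2). The block changed no call of the 10 genes. TMM factors were not run. Counting error was widest for Wasf2 (70 to 594 counts).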
